A study of Arabidopsis thaliana with 3 samples.

Results

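The cytosolic 40S ribosomal protein genes encode the proteins of the small subunit of the plant cytosolic ribosome. They were taken as the loci whose array annotation, before its first semicolon, reads 40S ribosomal protein without the words similar to, which gave 79 of the 29030 loci measured. By the protein name in their annotation the 79 loci fall into 29 protein families, of which 26 had 2 or more members and 3 had a single one. Of these loci, 3 go against the name: AT5G47320, annotated RPS19, is known as a mitochondrial type S19 gene, and AT4G12160 (S9) and AT1G63857 (S10) are pseudogenes, which leaves 76. Another 17 small subunit genes of the cytosol, among them both S6 genes and both S5 genes, are annotated in other words and so lay outside the 79. They are described separately.

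The small subunit binds the messenger RNA and holds the decoding centre, where codons are read by transfer RNAs. Its proteins sit on a head, a body and a platform around the 18S ribosomal RNA. In Arabidopsis each protein is encoded by a small family of very similar genes, and their transcripts are known to follow growth and the activity of the TOR kinase, which acts through S6 kinase on ribosomal protein S6.

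Transcripts of the Arabidopsis thaliana mutant pfd4 and of its wild type Col-0 were compared on 3 arrays, each hybridised with RNA of both genotypes. PFD4 encodes a subunit of prefoldin, a chaperone complex that receives newly made actin and tubulin. The labels call the 3 arrays biological replicates. All of their descriptions state the same replicate number, so the array numbers used here are those in the titles, and the dyes are those stated for each array. All plants of both genotypes were 2 weeks old, were grown at 22 °C under a photoperiod of 16 h light and 8 h dark, and then spent 24 h at 4 °C. Plants kept warm were not analysed here, so a ratio sets cold-treated mutant against cold-treated wild type. The pfd4 RNA was labelled with Cy3 and the Col-0 RNA with Hyper5 on arrays 1 and 2, and array 3 had them the other way round. The sources used here do not give the kind of pfd4 allele, the number of plants behind an RNA sample or the plant parts taken.

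The values are log2 ratios, in which 0 means equal signal and 1 means a doubling. They were read as pfd4 over Col-0, which is likely and not stated: the log2 ratio of PFD4 (AT1G08780) was -3.08, -2.71 and -2.17, below 0 in both dye orientations. PFD4 is therefore no independent check of the labels, and if Col-0 was the numerator every direction below turns. The medians over all loci were -0.01, 0.01 and 0.005 on arrays 1, 2 and 3, and the SDs over loci were 0.36, 0.55 and 0.37. No intensities were used here, so levels could not be compared between genes and tissue markers could be read only as ratios. In RNA of whole samples, fewer cells of a type and less RNA per cell cannot be told apart.

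Most 40S genes had mean ratios slightly above 0, the side of higher signal in pfd4, and no single gene passed the test. The mean log2 ratio over the 3 arrays lay above 0 in 67 of the 79 genes (84.8%), against a background of 51.1% of all loci. The median of these means was 0.21, beside 0.007 over all loci. The means ran from -0.33 for RPS16B to 0.81 for RPS26B, and 0 genes differed 2-fold or more by the mean (0.661% of all loci did). With limma and Benjamini-Hochberg adjustment over all 29030 loci, 0 of the 79 genes passed, as did 0% of all loci. The smallest adjusted p of a 40S gene was 0.887. PFD4, at a mean of -2.65, had the same adjusted p of 0.887 in this limma fit. The lack of a passing 40S gene therefore does not show that none differed. At an unadjusted p under 0.05, 7 genes lay higher and 0 lower, where the background shares were 2.14% and 2.58%. The 7 genes are RPS16C, RPS9B, RPS15aF, RPS12C, RPS8A, RPS2B and the mitochondrial type RPS19.

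The 3 arrays did not show this with the same strength. The 79 genes had a median log2 ratio of -0.11 on array 1, of 0.285 on array 2 and of 0.37 on array 3. On array 1 only 32 genes were positive, on array 2 there were 55 and on array 3 there were 66, where 48%, 51% and 50.2% of all loci were positive. The list thus lay below 0 on 1 of the arrays with pfd4 in Cy3 and above 0 on the other. A positive ratio on all 3 arrays was found in 16 of the 79 genes, beside 12.3% of all loci. These were RPS2B, AT1G58983, RPS3aB, RPS8A, RPS9B, RPS12C, RPS13A, RPS15aF, RPS16C, RPS17D, RPS19, RPS19B, RPS20B, RPS23B, RPS24B and RPS29B. RPS23A was the 1 gene negative on all 3 arrays, as 12.1% of all loci were. The 12 genes whose mean was at or below 0 were RPS16B, RPS9C, RPS23A, P40, RPS2D, RPS3C, RPS15aC, RPS15B, RPS15C, RPS20A and both pseudogenes.

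**Figure D1:**
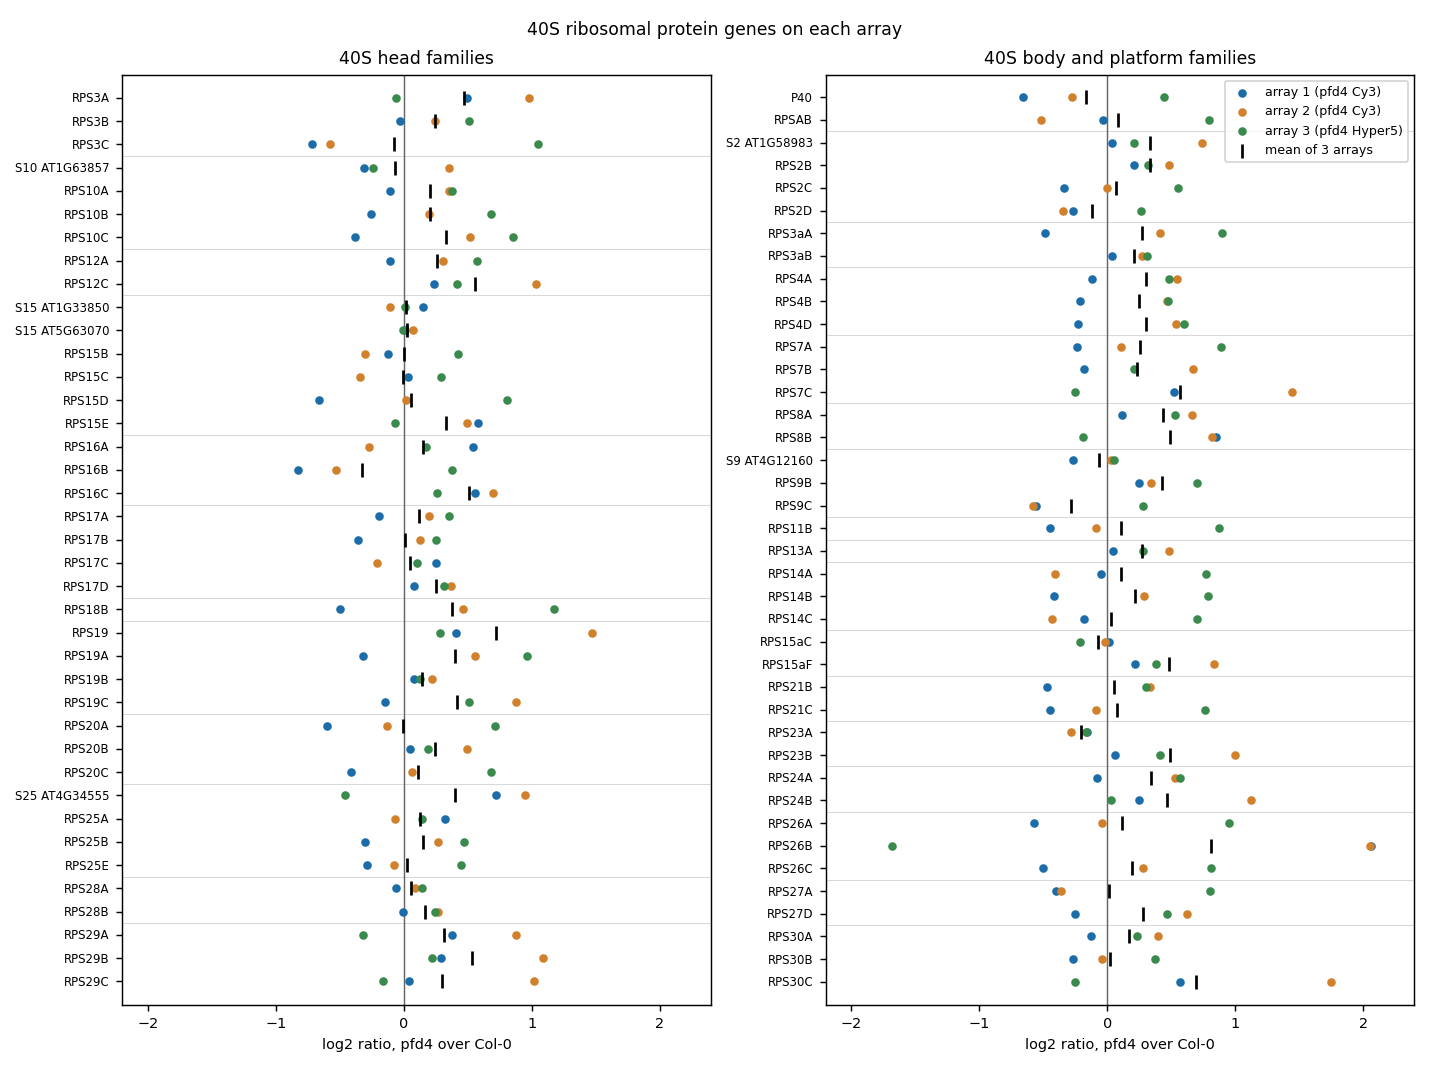
Log2 ratio of pfd4 over Col-0 (horizontal axis) of the 79 40S genes, grouped by protein family with thin lines between families; coloured points are the 3 arrays and black bars their mean. Most bars lie right of 0, while the array 1 points of many genes lie left of 0 and the array 3 points right of it.

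Among the genes of the head, RPS16C and RPS12C had the smallest p, while other members of their families did not reach an unadjusted p under 0.05. S16 reaches from the head towards the decoding site. RPS16C (AT5G18380) had log2 ratios of 0.56, 0.70 and 0.26 on arrays 1, 2 and 3, and a mean of 0.51 ± 0.22 (SD, n = 3). It was positive on every array and ranked first of the 79 genes in the limma fit, with an adjusted p of 0.887. Its family member RPS16B (AT3G04230) had -0.83, -0.53 and 0.38, the lowest mean of all 79 genes at -0.33 ± 0.63. RPS16B was low on arrays 1 and 2 and high on array 3, so its sign followed the dye orientation.

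S12 is a head protein without a counterpart in bacteria. RPS12C (AT2G32060) had log2 ratios of 0.23, 1.03 and 0.41, with a mean of 0.56 ± 0.42 (SD, n = 3; limma adjusted p = 0.887). All 3 arrays lay above 0, with array 2 highest. RPS29B (AT3G44010), one of the genes of the zinc-binding protein S29, had 0.29, 1.09 and 0.22 and a mean of 0.53 ± 0.48. It too was positive on all arrays and highest on array 2. RPS19 (AT5G47320), the mitochondrial type gene, had 0.41, 1.47 and 0.28 and a mean of 0.72 ± 0.65, the second highest of the list. It shares with the cytosolic genes RPS19A, RPS19B and RPS19C the name S19, by which alone it was grouped with them. These cytosolic genes had means of 0.40, 0.14 and 0.415. Cytosolic S19 is needed in yeast and human cells for maturation of the 18S ribosomal RNA.

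S3 lies where the messenger RNA enters the subunit, and its genes differed from each other. RPS3C (AT5G35530) had log2 ratios of -0.715, -0.575 and 1.05 and a mean of -0.08 ± 0.98 (SD, n = 3). It was low on both arrays with pfd4 in Cy3 and high on array 3. RPS3A had 0.495, 0.975 and -0.06, above 0 on arrays 1 and 2 and slightly below 0 on array 3, as an average of a pair of spots with opposite signs. RPS18B (AT1G34030), from the family of S18, which contacts the large subunit, had -0.50, 0.46 and 1.17 and a mean of 0.38 ± 0.84. Its arrays spread over both sides of 0. The S10 pseudogene AT1G63857 had -0.31, 0.35 and -0.24, with a mean of -0.07 ± 0.36 and no common sign. The remaining head families kept to a narrower range of means. Means ran from -0.007 to 0.33 over the 6 genes of S15, from 0.007 to 0.25 over the 4 genes of S17, from -0.007 to 0.24 over the 3 genes of S20, from 0.03 to 0.40 over the 4 genes of S25 and from 0.06 to 0.17 over both genes of S28. Of the S10 genes, RPS10C was highest at 0.33. Across the 37 head genes the median log2 ratio was -0.03, 0.24 and 0.31 on the 3 arrays, and the median of the means was 0.17.

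The 39 genes of the body and platform had a median of the means of 0.23, with array medians of -0.16, 0.34 and 0.44. S9 and S23 both act at the decoding centre or near the messenger RNA entry and are known from yeast for their part in translational accuracy. RPS9B (AT5G15200) had log2 ratios of 0.245, 0.34 and 0.70 and a mean of 0.43 ± 0.24 (SD, n = 3; limma adjusted p = 0.887). It was positive on all arrays, with array 3 highest. Its family member RPS9C (AT5G39850) had -0.56, -0.58 and 0.28 and a mean of -0.29 ± 0.49. RPS9C was low on arrays 1 and 2 and high on array 3. RPS23A (AT3G09680) had -0.16, -0.28 and -0.17 and a mean of -0.20 ± 0.07. RPS23A varied little, and its family member RPS23B was positive on all 3 arrays with a mean of 0.49.

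S8 and S15A are proteins of the body. RPS8A (AT5G20290) had log2 ratios of 0.12, 0.66 and 0.53 and a mean of 0.44 ± 0.285 (SD, n = 3; limma adjusted p = 0.887). RPS8B (AT5G59240) had 0.85, 0.82 and -0.19 and a mean of 0.49 ± 0.59. The means of both S8 genes were near each other, yet RPS8B turned its sign on array 3. RPS8A was positive on all arrays as an average of 3 spots, which on array 1 were -0.03, -0.14 and 0.52. With the median of its spots RPS8A had a log2 ratio of 0.33 and an unadjusted limma p of 0.11. RPS15aF (AT5G59850) had 0.22, 0.84 and 0.38 and a mean of 0.48 ± 0.32 (limma adjusted p = 0.887). RPS15aC (AT2G39590) had 0.01, -0.02 and -0.21 and a mean of -0.07 ± 0.12. RPS15aF thus lay above 0 on each array, while RPS15aC stayed close to 0 on arrays 1 and 2.

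S26 lies on the platform, where the messenger RNA leaves the subunit. RPS26B (AT2G40590) had log2 ratios of 2.06, 2.05 and -1.68 and a mean of 0.81 ± 2.16 (SD, n = 3). It was the most extreme 40S gene on every array and turned from high to low when the dyes were exchanged, so its mean is smaller than its spread. The other S26 genes went the opposite way on arrays 1 and 3: RPS26A had -0.57, -0.04 and 0.95, and RPS26C had -0.50, 0.28 and 0.81. RPS7C (AT5G16130) had 0.525, 1.44 and -0.25 and a mean of 0.57 ± 0.85. RPS30C (AT5G56670), whose protein is made in plants without the ubiquitin-like part that is fused to it in mammals, had 0.57, 1.75 and -0.25 and a mean of 0.69 ± 1.01. Both were high on arrays 1 and 2 and slightly below 0 on array 3.

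S2 lines the messenger RNA entry and SA lies on the platform side near its exit. RPS2D (AT3G57490) had log2 ratios of -0.27, -0.35 and 0.26 and a mean of -0.12 ± 0.33 (SD, n = 3). RPS2B had a mean of 0.335 ± 0.14 and was positive on all arrays, as was the S2 gene AT1G58983 with a mean of 0.33. P40 (AT1G72370), an SA gene, had -0.655, -0.275 and 0.44 and a mean of -0.16 ± 0.56. RPS2D and P40 had the same order of signs, low on arrays 1 and 2 and high on array 3. RPS13A (AT3G60770), an S13 gene, had 0.045, 0.48 and 0.28 and a mean of 0.27 ± 0.22, above 0 on every array.

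The other body and platform families had means above 0 throughout. Both S24 genes stood at 0.34 and 0.47, and both S3a genes at 0.21 and 0.27. The 3 genes of S14 ran from 0.03 to 0.22, both genes of S21 lay at 0.05 and 0.07, both genes of S27 at 0.01 and 0.28, and RPS11B at 0.11. S24, S27 and S21 are known in yeast or human cells for roles in 18S ribosomal RNA maturation. The S9 pseudogene AT4G12160 had a mean of -0.06.

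Within families the members were close in some and apart in others. The 3 genes of S4 had means between 0.25 and 0.30, a span of 0.06. The widest spans of means were 0.83 in S16, 0.715 in S9, 0.70 in S26, 0.69 in S23 and 0.67 in S30, and 0 of the 16 families with 3 or more loci spanned over 1. On single arrays S26 spanned 2.63 on array 1 and on array 3. Genes of a family are near-identical in places, so a spot may take up transcript of more than its own gene, and close values such as those of RPS2B and AT1G58983 are uncertain as separate measurements.

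Ratios of the 79 genes on array 3 ran against those on array 1. Of the 79 genes, 45 (57.0%) were negative on array 1 and positive on array 3, beside 29% of all loci. Another 10 genes were positive on arrays 1 and 2 and negative on array 3 (16.9% of all loci). Across the genes, Pearson's r was 0.645 between arrays 1 and 2, which share a dye orientation, -0.76 between arrays 1 and 3 and -0.48 between arrays 2 and 3. Spearman's rho was 0.535, -0.66 and -0.31. Over all loci r was 0.40, -0.27 and -0.035. Other ribosomal protein genes had correlations of the same signs, nearer to those of the 79 genes between arrays 1 and 3. The 117 genes of the 60S subunit had r of 0.48, -0.73 and -0.31. The 9 genes annotated as 30S ribosomal proteins had r of 0.78, -0.82 and -0.59. These correlations are descriptions across genes, which are not independent replicates and share the array and its normalization.

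**Figure D2:**
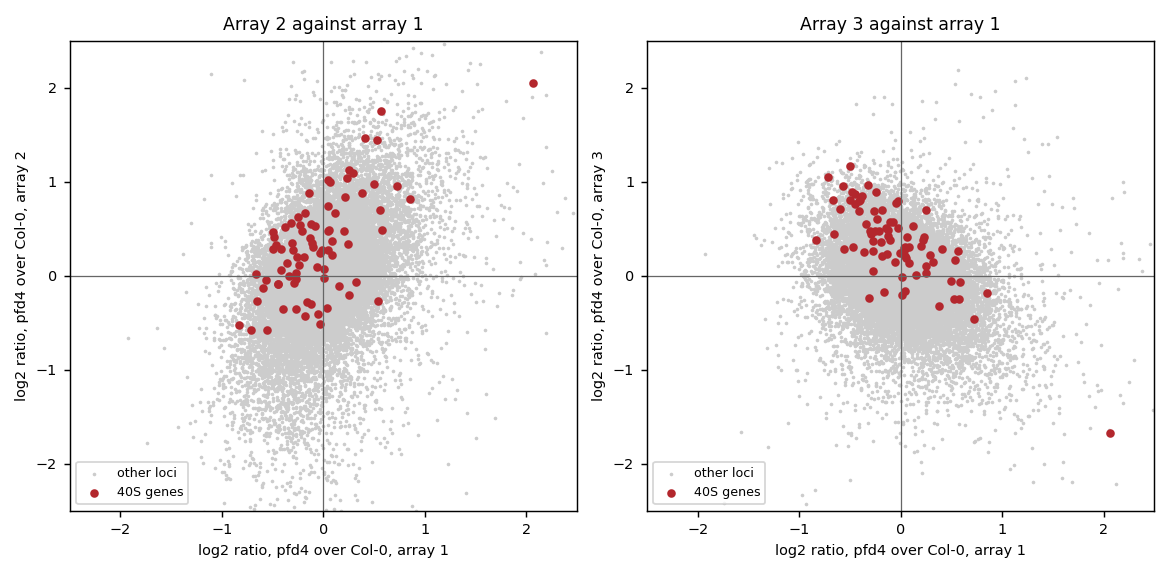
Log2 ratio of pfd4 over Col-0 on array 2 (left) and on array 3 (right) against that on array 1, with 40S genes in red and other loci in grey; a few other loci lie outside the axes. The 40S genes run upward on the left (r = 0.645) and downward on the right (r = -0.76), with RPS26B at the far end of both.

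The dye exchange allows each gene's ratios to be split into a genotype term, the average of both dye orientations with equal weight, and a dye term, positive where the Cy3 signal was higher. Array 3 is the only array of its orientation, so the dye term cannot be told apart from any other property of array 3. In this fit the genotype term of the 79 genes had a median of 0.245, beside 0.0075 over all loci, and lay above 0 in 71 genes (89.9%, against 51.5% of all loci). It lay above 0 in 36 of the 37 head genes and in 34 of the 39 body and platform genes, both counted without the pseudogenes and the mitochondrial type gene. With limma, 0 genes passed an adjusted p of 0.05 for the genotype term, as did 0% of all loci. At an unadjusted p under 0.05 there were 2 genes higher, RPS9B and RPS16C, and 0 lower, beside 1.94% and 2.64% of all loci.

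The dye term varied more among the 40S genes than the genotype term did. This restates the negative correlations of array 3 with arrays 1 and 2 and is no separate result. Its SD over the 79 genes was 0.39 and that of the genotype term 0.175, whereas over all loci the SDs were 0.29 and 0.25. The same held for other ribosomal protein genes, with SDs of 0.35 and 0.18 over the 60S genes and 0.45 and 0.21 over the 30S genes. Among the 40S genes the dye term ran from -0.85 for RPS3C to 1.87 for RPS26B, and the genotype term from -0.195 for RPS23A to 0.61 for RPS19 (AT5G47320). The dye term was larger in size than the genotype term in 41 genes (51.9%), near the background of 53.4%. It was below 0 in 54 genes (49.8% of all loci), with a median of -0.14, and 18 genes had an unadjusted p under 0.05 (10.8% of all loci), while 0 passed an adjusted p of 0.05 (0% of all loci). For RPS26B the genotype term was 0.19, and for RPS3C it was 0.20, above 0 although the mean of its 3 arrays was below 0.

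**Figure D3:**
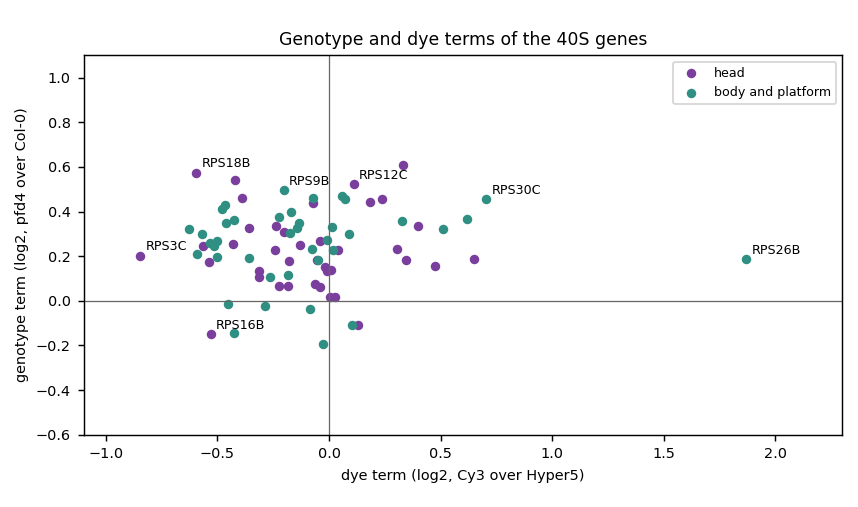
Genotype term (vertical axis, log2 of pfd4 over Col-0) against dye term (horizontal axis, log2 of Cy3 over Hyper5) of the 79 40S genes; purple marks head and green body and platform families. Most genes lie above 0 on the vertical axis at dye terms from -0.85 to 0.71, and RPS26B stands alone at 1.87.

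Several spots measured the same gene for 24 of the 79 genes, and 55 had a single spot. Spots of a gene differed by a median range of 0.33, 0.61 and 0.365 on arrays 1, 2 and 3. RPS12C was positive in all 4 spots on every array, from 0.13 to 0.29 on array 1, from 0.71 to 1.41 on array 2 and from 0.24 to 0.49 on array 3. RPS3A had one spot at 1.23, 2.01 and -0.73 and another at -0.24, -0.06 and 0.61, opposite in sign on every array. The average of RPS3A thus combined unlike spots. For RPS9B, the value of 0.70 on array 3 was the average of spots at 1.27 and 0.13. RPS7C had one spot at 0.93, 2.06 and -0.53 and another at 0.12, 0.82 and 0.03. In both genes the spots shared their sign on arrays 1 and 2 and differed in size.

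**Figure D4:**
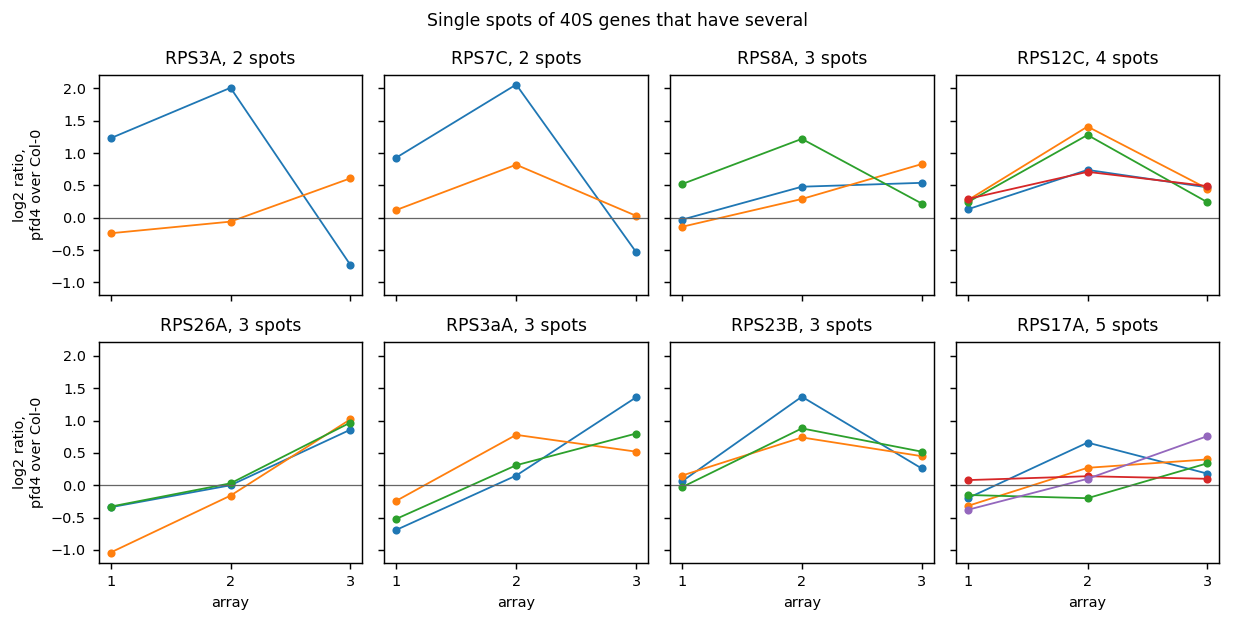
Log2 ratio of pfd4 over Col-0 of the single spots (coloured lines) on the 3 arrays for 8 40S genes with several spots. The spots of RPS12C all lie above 0 and are farthest apart on array 2, whereas the 2 spots of RPS3A cross.

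The 17 small subunit genes annotated in other words, a list chosen after the data were seen, had array medians of -0.19, 0.45 and 0.52 and a median of the means of 0.26. Means lay above 0 in 14 of the 17 genes (51.1% of all loci), and 0 passed the adjusted test (0% of all loci). S6 is the target of S6 kinase. RPS6 (AT4G31700) had log2 ratios of -0.21, 0.445 and 0.545, and RPS6B (AT5G10360) had 0.215, 0.795 and 0.045. RPS6B was positive on all arrays and RPS6 on arrays 2 and 3. RPS5A, whose loss stops early embryos, had -0.19, 0.21 and 0.53, and RPS5B had -0.29, 0.40 and 0.77. PFL, an S18 gene known for the pointed first leaves of its mutant, had -0.49, 0.72 and 1.08. Another S18 gene, RPS18C, had -0.335, 0.64 and 0.365. RPS5A, RPS5B and PFL shared the order of low on array 1 and highest on array 3. Among those at an unadjusted p under 0.05 were RPS15A with a mean of 0.54 and RPS15AD with 0.56, both positive on all 3 arrays. Of all loci 2.14% were higher at this threshold.

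The 117 genes of the 60S subunit, found by the same wording rule, had a median of the means of 0.23, with array medians of 0.07, 0.42 and 0.16. Means lay above 0 in 101 of them (86.3%), beside 84.8% of the 40S genes. Their genotype term lay above 0 in 103 (88.0%), beside 89.9% of the 40S genes. On arrays 1 and 3 the subunits stood in different order: the 40S median was the lower on array 1 and the higher on array 3. Of the 60S genes 38 (32.5%) were negative on array 1 and positive on array 3, beside 45 (57.0%) of the 40S genes. No test of this difference was run. The 9 genes annotated as 30S ribosomal proteins, the type of organelle ribosomes, had array medians of 0.17, 0.58 and 0.25 and a median of the means of 0.29.

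Other lists of genes around the small subunit had medians of the means nearer to or below 0, which does not hold for each array. RACK1 is a scaffold protein on the 40S head. Of its 3 genes, RACK1A had log2 ratios of -0.38, 0.11 and 0.36, RACK1B had -0.01, 1.07 and 0.16, and RACK1C had -0.92, -0.37 and 1.01. All 3 were below 0 on array 1 and above 0 on array 3, as the medians of the 40S genes were. In the list of TOR and S6 kinase signalling, 0 of 11 genes passed in either direction, the median of the means was -0.12, S6K1 had a mean of 0.20 and S6K2 of -0.25. Of the 31 ribosome biogenesis genes 0 passed, and the array medians were 0.00, 0.07 and -0.21. Their means ran from -0.47 to 0.93 with a median of -0.02, and 14 lay above 0 (51.1% of all loci). NUC2, a nucleolin gene, had -0.30, -0.51 and -0.61, and LSG1-1, a GTPase gene of 60S maturation, had -0.14, -0.44 and -0.64. Both were negative on all arrays, with unadjusted limma p of 0.0171 and 0.0454 (adjusted p = 0.887 for both). They were the 2 biogenesis genes lower at an unadjusted p under 0.05, with 0 higher, beside 2.58% and 2.14% of all loci. In the list of translation elongation and poly(A) binding 0 of 11 genes passed, with a median of the means of -0.14.

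Marker lists of cell types and stages were read beside the 40S genes, and 0 genes of any of them passed the adjusted test. Dividing cell markers had array medians of -0.08, -0.09 and 0.15, with means from -0.27 to 0.47 over 10 genes. Mature leaf markers had -0.05, -0.75 and 0.12, with means from -0.50 to 0.09 over 6 genes, and root markers 0.285, -0.44 and 0.33, with means from -0.08 to 0.32 over 6 genes. Floral markers had -0.195, -0.225 and -0.07, with means from -0.44 to 0.06 over 6 genes. Senescence markers had 0.54, 0.43 and -0.215, and their 6 means lay on both sides of 0, from -1.02 for the transcription factor gene NAC092, negative on all 3 arrays, to 0.81 for the sucrose transporter gene SWEET15. On array 2 the leaf and root medians were low while the 40S median was high, and the dividing cell and leaf lists shared with the 40S genes a negative median on array 1 and a positive one on array 3. At an unadjusted p under 0.05 were SWEET15, higher, and the floral identity gene AP1, lower with a mean of -0.44. Of all loci 2.14% were higher and 2.58% lower at this threshold. The part of any of these tissues in the ratios of the 40S genes was not tested.

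**Figure D5:**
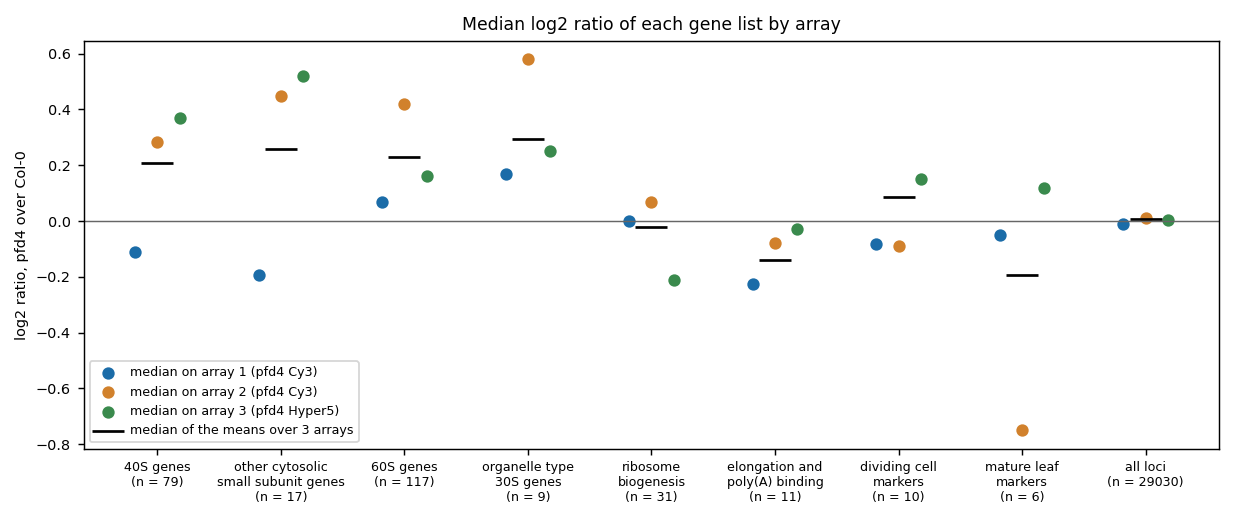
Median log2 ratio of pfd4 over Col-0 of each gene list on the 3 arrays (coloured points) and median of the means over the 3 arrays (black bars), with the number of genes below each name. The 40S bar lies at 0.21 and the 60S bar at 0.23, and the 40S points run from -0.11 on array 1 to 0.37 on array 3.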

How the data were processed

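The authors deposited a normalized log2 ratio for each spot of each array and used limma, per the submitters' processing notes. Its version, its settings and the log base were not given in the sources used here, and base 2 was assumed as limma's usual scale. Of 45220 spots, 38613 carried a locus code; their values were averaged per locus, which gave 29030 loci. The 2 deposited tables were identical at 45220 spots. Each locus was tested with limma 3.58.1 (R 4.3.3; lmFit and eBayes, 3 ratios against 0, two-sided, Benjamini-Hochberg over 29030 loci, threshold 0.05, residual degrees of freedom 2, prior 2.68), and again with a dye term. Errors are SDs over 3 arrays, whose number limits the precision. The procedure was tested on simulated data. Spots without a locus code were left out.

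The members and lists were chosen with earlier results of these data known. Named with values were the 8 highest and 8 lowest means, the 5 smallest p in each direction, members of S5, S6, S13 and S18, PFD4 and list genes at an unadjusted p under 0.05; other genes named were chosen after their values were seen. A list gene that this rule names is not reported here. Of 94 list genes, 90 were used; NOP58-1, NOP58-2, RH10 and MRF1 had no matching name. Of the 79 loci, 78 had a RefSeq gene record. Alternatives covered spots, arrays left out, dye, the sign of array 3, weights, scale, centring, membership and the second table.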

Additional observations from a re-analysis of the deposited data

How the results depend on the processing

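No 40S gene passed limma's adjusted test under any of the alternatives run. The count at an unadjusted p under 0.05 was 7 as reported, 0 without array 2 and 2 with a dye term. It was 3 with the first spot of each locus, 13 without array 3 and 17 where the sign of array 3 was turned. Over all loci 2.14% were higher and 2.58% lower as reported, and 1.94% and 2.64% with a dye term. For the other alternatives no share over all loci was counted, so their counts are not a result about the 40S genes. The median of the 40S means, 0.21, lay between 0.10 and 0.34 with 1 array left out, was 0.14 with array weights and 0.245 with a dye term, and was -0.04 with array 3 turned in sign. The count of genes with 1 sign on all arrays was 17, where 12.3% of all loci were positive and 12.1% negative on all 3. With the sign of array 3 turned it was 26, made up of 10 positive and 16 negative genes. The same turn gave 4920 positive and 4883 negative of all 29030 loci. Without 1 array the count lay between 23 and 46, over fewer arrays, and no share over all loci was counted. With the sign of array 3 turned, RPS15aC had 0.067, AT1G63857 0.093, RPS9B -0.038 and RPS18B -0.40. With a dye term RPS3C had 0.20. With 1 array left out, P40 lay between -0.465 and 0.0825, RPS3C between -0.645 and 0.2375, AT1G63857 between -0.275 and 0.055, and RPS18B between -0.02 and 0.815. Of the 21 40S genes that the rule named, the only ones run singly, the others kept their sign under these alternatives, though RPS26B ranged from 0.185 to 2.055 with 1 array left out. The causes were not tested. Leaving out the pseudogenes and the mitochondrial type gene, or adding the 17 genes named in other words, alternatives added after the data were seen, gave medians of 0.21 and 0.21. The test against 0 already compares the genotypes within each array. No paired analysis was possible because beside it there is no second group of arrays that shares replicate numbers.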
